A study of Mus musculus with 126 samples.

Results

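The MHC class I antigen presentation genes are described here in mouse embryonic stem cells with and without DNA methyltransferases and with and without a histone deacetylase inhibitor. They comprise 9 genes: H2-K1, H2-D1, B2m, Tap1, Tap2, Tapbp, Psmb8, Psmb9 and Nlrc5. The members were taken by symbol from a gene count table of 23420 genes, and each of the 9 symbols matched 1 row. All 9 passed the filter on low counts and were among the 15822 genes tested.

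The study set DNA methylation against histone acetylation, and its RNA-seq part holds 8 libraries in 4 groups of 2. Wild type cells were the J1 line of mouse embryonic stem cells, and the mutant cells, labelled DNMT.TKO and called TKO here, lack Dnmt1, Dnmt3a and Dnmt3b. Cells of each genotype were given Trichostatin A (TSA), an inhibitor of class I and class II histone deacetylases, at a labelled 5 ng/µl, or 0.0033% DMSO, each for 36 h, and cells given DMSO are called controls. All cells grew on gelatin in serum with leukaemia inhibitory factor. The 2 libraries of a group are labelled as replicates, but the labels do not say whether they came from separate cultures. The p-values below therefore measure the spread between these libraries, which may be technical. No label gives more than 1 line per genotype, so a difference between genotypes is a difference between these cells.

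MHC class I molecules display short peptides from inside the cell to CD8 T cells and are also read by natural killer cells. A heavy chain, here H2-K1 or H2-D1, pairs with the light chain beta-2 microglobulin (B2m), and peptides cut by the proteasome are pumped into the endoplasmic reticulum by the Tap1-Tap2 transporter and loaded with the help of tapasin (Tapbp). Psmb8 and Psmb9 are inducible catalytic subunits that replace Psmb5 and Psmb6 in the immunoproteasome, and Nlrc5 is the transactivator that acts on the promoters of many of these genes. Embryonic stem cells are known for low class I display, and interferon-gamma raises the whole set in most cell types.

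The sequences just upstream of the members are shown because the members did not move alike, and these are the stretches through which the set is known to be switched on together. They come from RefSeq (GRCm38.p6, the build of the deposited coordinates), as windows of 250 bases before to 50 bases after the start. Only windows whose start was the outermost exon end of the gene as deposited were used. Such a window was found for 7 of the 9 members, all but Tap2 and Nlrc5. Capitals mark exact matches, on either strand, to 4 motifs: the NF-kappaB consensus, which in H2-K1 and H2-D1 is the class I enhancer A, AANNGAAA, the core of interferon response elements, CCAAT, the Y box bound by NF-Y, and TGACG, the core of sites bound by CREB and ATF factors. Matches to different motifs do not overlap in the stretches printed, while those to the NF-kappaB consensus overlap each other in H2-K1 and H2-D1. Each stretch runs 5′ to 3′ along its gene and ends 1 base before the start.
H2-K1, chr17:34000334-34000583, minus strand: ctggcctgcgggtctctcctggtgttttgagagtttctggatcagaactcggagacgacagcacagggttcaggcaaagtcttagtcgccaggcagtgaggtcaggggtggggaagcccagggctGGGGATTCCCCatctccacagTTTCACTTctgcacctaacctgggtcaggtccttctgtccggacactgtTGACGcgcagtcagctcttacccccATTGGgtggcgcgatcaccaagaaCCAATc
H2-D1, chr17:35262844-35263093, plus strand: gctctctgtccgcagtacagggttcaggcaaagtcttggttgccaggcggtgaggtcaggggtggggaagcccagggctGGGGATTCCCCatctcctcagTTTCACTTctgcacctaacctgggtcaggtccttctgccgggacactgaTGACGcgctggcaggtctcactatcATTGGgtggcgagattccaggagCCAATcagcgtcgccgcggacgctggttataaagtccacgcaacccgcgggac
B2m, chr2:122147437-122147686, plus strand: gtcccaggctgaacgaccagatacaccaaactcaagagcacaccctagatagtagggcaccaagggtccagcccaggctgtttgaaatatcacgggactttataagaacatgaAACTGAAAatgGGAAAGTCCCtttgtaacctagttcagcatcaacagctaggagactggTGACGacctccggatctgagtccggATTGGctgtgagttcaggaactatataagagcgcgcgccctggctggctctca
Tapbp, chr17:33919228-33919477, plus strand: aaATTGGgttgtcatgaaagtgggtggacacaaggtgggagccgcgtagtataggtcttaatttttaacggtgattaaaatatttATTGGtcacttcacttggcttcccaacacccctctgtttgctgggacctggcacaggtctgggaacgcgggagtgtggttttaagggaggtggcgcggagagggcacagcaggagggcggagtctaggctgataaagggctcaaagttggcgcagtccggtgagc
Psmb8, chr17:34197945-34198194, plus strand: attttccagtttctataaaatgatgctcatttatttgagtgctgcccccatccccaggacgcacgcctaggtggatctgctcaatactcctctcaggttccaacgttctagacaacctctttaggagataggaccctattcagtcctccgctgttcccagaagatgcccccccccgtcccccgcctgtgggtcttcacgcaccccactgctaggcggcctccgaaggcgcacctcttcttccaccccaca
Psmb9 to Tap1, chr17:34187331-34187555, plus strand: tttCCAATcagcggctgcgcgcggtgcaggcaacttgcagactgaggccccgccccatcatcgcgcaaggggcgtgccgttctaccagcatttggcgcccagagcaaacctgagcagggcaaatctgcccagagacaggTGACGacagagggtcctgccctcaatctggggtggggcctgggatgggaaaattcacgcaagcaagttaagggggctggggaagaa
The last stretch lies between the starts of Psmb9 and Tap1, which are transcribed away from each other, so it is upstream of both.

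The NF-kappaB consensus was present upstream of H2-K1, H2-D1 and B2m and in 8.462% of all 32841 RefSeq windows of 300 bases. The interferon response core was found upstream of the same 3 genes, against 23.92% of all windows. CCAAT was present in every member window but that of Psmb8, against 37.42% of windows, and TGACG in those of H2-K1, H2-D1, B2m, Psmb9 and Tap1, against 20.82%. The Psmb8 window held none of the 4 motifs. Over 253 aligned bases, the H2-K1 and H2-D1 windows were 88.9% identical. CpG dinucleotides, where DNA methylation is placed, numbered 15 in the window of H2-K1, 19 in H2-D1, 14 in B2m, 15 in Tap1, 17 in Psmb9, 11 in Tapbp and 11 in Psmb8. A match is a description of the letters and not a measured binding site.

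The libraries held 13280631 to 15542527 counts each, and 3 counts correspond to 0.183 to 0.243 normalised CPM. Levels below are normalised CPM, that is counts scaled to a common library total with TMM factors, and levels of different genes are compared only per kilobase of exon (CPM per kb). The targeted genes followed the labels: Dnmt1 was at 428 to 464 CPM in wild type and 126 to 135 CPM in TKO under DMSO, Dnmt3a at 185 to 237 and 25.9 to 27.0, and Dnmt3b at 588 to 596 and 43.7 to 46.2. The 10 markers of embryonic stem cells summed to 3505 to 3976 CPM in wild type controls, 1941 to 2179 in TSA-treated wild type, 4430 to 4855 in TKO controls and 1927 to 2255 in TSA-treated TKO, and 8 of the 10 fell with TSA in each genotype. None of them was at 0. Summed markers of fibroblast or mesenchymal cells (16 genes) were at 300.1 to 562 CPM, 417 to 638, 83.2 to 101 and 174 to 200 in the same order, and 1 of the 16, Dcn, was at 0 in TSA-treated TKO. Trophoblast markers (8 genes) summed to 511 to 761, 1239 to 1348, 95.9 to 139 and 336 to 387 CPM, and primitive endoderm markers (8 genes) to 255 to 299, 289 to 313, 523 to 558 and 461 to 515. Of 12 blood or immune markers, 11 were in the table. Their sum stayed between 50.3 and 62.4 CPM in all 8 libraries, with Lyz2 and Tyrobp, which mark myeloid cells, at 0 in both control groups. They did not move alike: of 7 tested, 4 were called higher and 1 lower with TSA in wild type, 2 and 3 in TKO. The shares of all genes were 27.0% and 25.9% in wild type, 30.8% and 27.9% in TKO. With TSA, Ptprc went from 0.519 to 3.98 CPM in wild type and from 0.105 to 4.09 in TKO. Laptm5 went from 22.7 to 11.4 and from 26.6 to 16.1. The trophoblast sum was thus higher with TSA in each genotype and lower in TKO, and the fibroblast or mesenchymal sum was lower in TKO and higher there with TSA. The 8 trophoblast markers did not agree on genotype: under DMSO 3 were called lower and 1 higher in TKO, under TSA 4 and 1. Krt8 and Krt18 were at 291 and 299 CPM in wild type controls and 30.3 and 33.6 in TKO controls. Tfap2c was at 38.1 and 43.8 CPM in these groups, and Ascl2 at 3.93 and 7.95. Of 14 fibroblast or mesenchymal markers tested, 7 were lower and 2 higher in TKO under DMSO, 6 and 2 under TSA. Over all genes, 10.7% were lower and 9.63% higher under DMSO, 8.38% and 10.0% under TSA. Tagln was at 252 CPM in wild type controls and 14.1 in TKO controls, Pdgfra at 1.99 and 11.3, and Twist1 at 5.40 and 10.3. With TSA in TKO, 12 of the 14 rose and none was called lower, while Tagln was at 4.81. The part of the cell type markers in the results below was not tested. In bulk RNA, fewer cells of a type and less RNA per cell cannot be told apart.

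All 9 members were detected in every library. Per kilobase, in the wild type controls, H2-K1 and B2m stood highest among the members, at 28.7 ± 2.0 and 26.6 ± 1.9 CPM per kb (SD, n = 2), above 76.9% and 75.3% of all genes tested. Tapbp (12.1 ± 0.78), Psmb8 (9.32 ± 0.22) and Tap1 (8.48 ± 2.5) lay near the middle of all genes, followed by Psmb9 (5.83 ± 0.28) and H2-D1 (5.62 ± 0.50). Tap2 was lower, at 2.69 ± 0.45 CPM per kb, and Nlrc5 was the lowest member at 0.453 ± 0.14, above 14.7% of genes. The H2-D1 level is uncertain, since 1060 of its 1736 exon bases (61.1%) are also annotated to H2-L, which has 0 counts in all 8 libraries, and reads in such overlaps may have been left out.

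With TSA, 7 of the 9 members rose in wild type cells (H2-K1, H2-D1, B2m, Tap1, Tap2, Psmb9, Nlrc5), 1 fell (Psmb8) and Tapbp was not called. The same 7 rose in TKO cells, where Psmb8 and Tapbp fell. A gene was called at an edgeR adjusted p below 0.05, and 27.0% of all genes tested were called higher and 25.9% lower with TSA in wild type, 30.8% and 27.9% in TKO. The members' median log2 fold change was 0.78 in wild type and 0.87 in TKO, beside 0.01 and 0.04 over all genes tested. The TSA comparisons in the 2 genotypes share no library.

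In the controls, the called differences between genotypes were all toward lower levels in TKO. There, 4 members were lower in TKO than in wild type (Tap1, Tap2, Psmb8, Nlrc5) and none was called higher, against 10.7% of all genes lower and 9.63% higher, and the 5 others were not called. Psmb8 alone was called under every alternative: the count fell to 1 without wild type control replicate 1 or TKO control replicate 1, and to 2 without TKO control replicate 2. Under TSA, H2-K1 was higher in TKO and Tap2, Tapbp, Psmb8 and Nlrc5 were lower, against 10.0% and 8.38% of all genes, and without TSA-treated TKO replicate 2 the 5 calls fell to 3. The members' median log2 fold change was -0.20 under DMSO and -0.41 under TSA, beside -0.01 and 0.00 over all genes.

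Between the cells with both changes and the cells with neither, TSA-treated TKO cells against wild type controls, 5 members were higher (H2-K1, H2-D1, B2m, Psmb9, Nlrc5), 2 were lower (Tapbp, Psmb8), and Tap1 and Tap2 were not called. All genes were called higher in 31.7% and lower in 30.2% in that comparison. It shares its libraries with the comparisons above. No member's TSA response was called as different between the genotypes (interaction, 0 of 9 with edgeR, 0 with DESeq2), against 1.35% of all genes with edgeR. At an unadjusted edgeR p below 0.05 there were 3 of the 9 members, against 2302 of all 15822 genes tested.

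**Figure D1:**
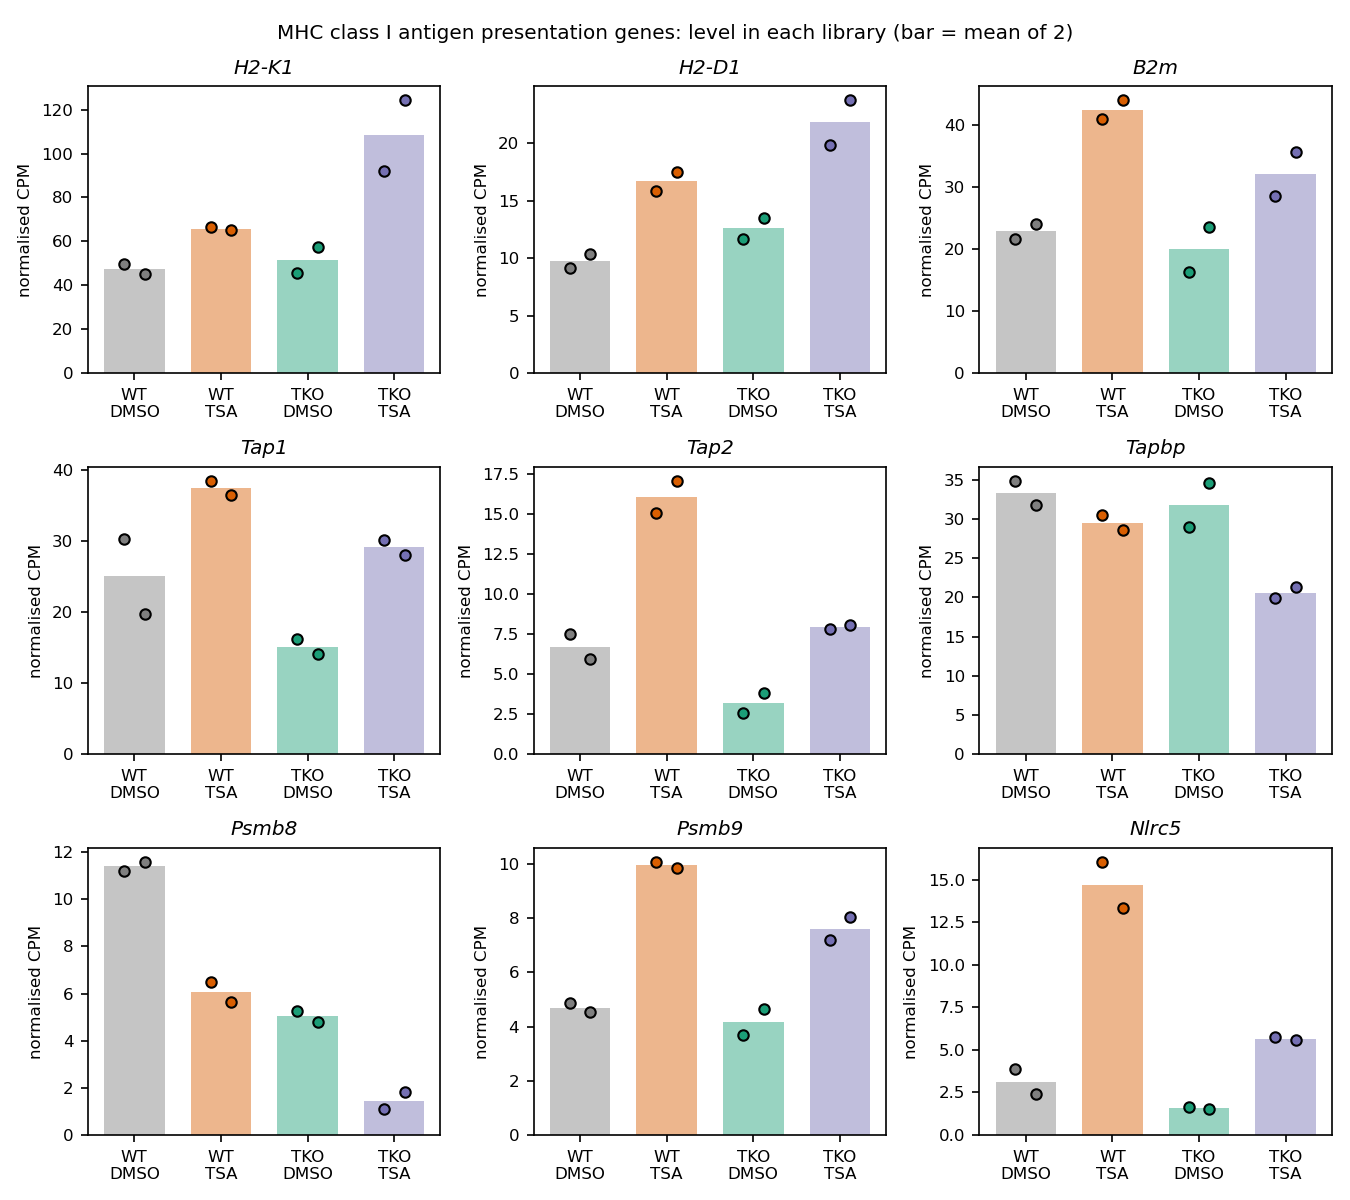
Normalised CPM of each member in every library. Each panel is 1 gene, points are the 2 libraries of a group and bars their mean, WT is wild type, and the vertical scale differs between panels and starts at 0. Psmb8 is lowest in TSA-treated TKO (1.08 and 1.82 CPM), where H2-K1 is highest (92.1 and 125 CPM).

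H2-K1, a classical heavy chain, stood at 49.6 and 44.99 CPM in wild type controls, 66.3 and 65.1 in TSA-treated wild type, 45.4 and 57.3 in TKO controls and 92.1 and 125 in TSA-treated TKO. The controls of the 2 genotypes overlapped, TSA-treated wild type lay above them, and TSA-treated TKO lay above all other libraries. TSA raised H2-K1 by a log2 fold change of 0.47 (SE 0.15, adjusted p = 0.0221) in wild type and 1.08 (SE 0.15, adjusted p = 0.000131) in TKO. The difference between these responses was 0.61 (SE 0.21) with an adjusted p of 0.212. Under TSA, H2-K1 was 1.65-fold higher in TKO than in wild type (adjusted p = 0.00743), while under DMSO the difference was 0.12 (SE 0.15, adjusted p = 0.648). The wild type response was no longer called without wild type control replicate 2, TSA-treated wild type replicate 1 or TSA-treated wild type replicate 2 (adjusted p = 0.103, 0.0705 and 0.0615), nor was the genotype difference under TSA without TSA-treated TKO replicate 2 (0.49, adjusted p = 0.0652).

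H2-D1, the other classical heavy chain counted here, was at 9.14 and 10.4 CPM in wild type controls, 15.9 and 17.5 in TSA-treated wild type, 11.6 and 13.5 in TKO controls and 19.9 and 23.8 in TSA-treated TKO. No group overlapped another, and the order from low to high was wild type controls, TKO controls, TSA-treated wild type, TSA-treated TKO, the order of the H2-K1 means. TSA raised it by 0.78 (SE 0.17, adjusted p = 0.00276) in wild type and by 0.80 (SE 0.16, adjusted p = 0.0015) in TKO. The genotype differences, 0.37 (SE 0.17) under DMSO and 0.39 (SE 0.16) under TSA, were not called (adjusted p = 0.157 and 0.111). From wild type controls to TSA-treated TKO, H2-K1 and H2-D1 rose 2.29-fold and 2.24-fold. With the counts of the 2 genes summed, since near-identical heavy chains can share reads, TSA raised the sum by 0.53 in wild type and 1.03 in TKO (adjusted p = 0.00916 and 0.000116).

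B2m, the light chain shared by all class I molecules (chr2:122147687-122153082, away from the MHC on chromosome 17), was at 21.7 and 23.99 CPM in wild type controls and 40.9 and 44.1 in TSA-treated wild type. In TKO it was at 16.3 and 23.6 CPM with DMSO and 28.5 and 35.6 with TSA. It was thus highest in TSA-treated wild type, and the control groups overlapped. TSA raised B2m by 0.90 (SE 0.17, adjusted p = 0.00147) in wild type and 0.69 (SE 0.18, adjusted p = 0.00594) in TKO, the latter not called without TKO control replicate 1 (0.44, adjusted p = 0.0728) or TSA-treated TKO replicate 2 (0.52, adjusted p = 0.0596). Genotype differences were not called (-0.20 under DMSO and -0.41 under TSA, adjusted p = 0.483 and 0.118). TSA-treated TKO was 1.40-fold above wild type controls (adjusted p = 0.0296), a call lost without wild type control replicate 1 (adjusted p = 0.131) or TSA-treated TKO replicate 2 (adjusted p = 0.217).

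The proportion of heavy to light chain messages differed between libraries, a description with no test. The ratio of H2-K1 plus H2-D1 to B2m, in CPM per kb, was 1.40 and 1.19 in wild type controls, 1.04 and 0.966 in TSA-treated wild type, 1.81 and 1.55 in TKO controls and 2.03 and 2.15 in TSA-treated TKO. Every TKO library lay above every wild type library, and TSA-treated wild type lay below all others.

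Of 28 other class I heavy chain genes, 13 could be tested, and 4 rose and 2 fell with TSA in wild type, 3 rose and 5 fell in TKO. Over all genes tested, 27.0% rose and 25.9% fell in wild type, and 30.8% and 27.9% in TKO. The median log2 fold changes of the 13 were 0.51 and 0.65. H2-Bl, a non-classical gene of the T region, went from 2.59 to 9.25 CPM in wild type and from 1.84 to 10.9 in TKO (log2 fold changes 1.83 and 2.57), and H2-Q10, which encodes a secreted class I protein, rose by 1.18 and 1.25. H2-T10 rose by 1.28 in wild type and was not called in TKO (0.75, adjusted p = 0.242), nor was the difference between these responses. H2-M5 fell by 2.02 and 2.60, and Fcgrt, the neonatal Fc receptor that also pairs with B2m, fell by 1.60 and 1.45. Cd1d1, which presents lipids, fell by 1.10 in TKO. The other calls of this list were of Mr1, Hfe and H2-K2, none above 2.22 CPM in any group and named after their values were seen.

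H2-Q4 was the only heavy chain of this list with a called difference between the TSA responses (1.55, adjusted p = 0.0352), a call that held without wild type DMSO replicate 2 but was lost without each of the 7 other libraries (adjusted p up to 0.17). It stood at 8.93 CPM in wild type controls, 9.19 in TSA-treated wild type, 2.07 in TKO controls and 6.25 in TSA-treated TKO. It was thus lower in TKO under DMSO (log2 fold change -2.10), and rose with TSA in TKO by 1.59. H2-Q2 was lower in TKO under DMSO (-1.17) and TSA (-1.04), H2-T10 was lower in TKO under TSA (-1.90), and Fcgrt was higher in TKO in both (0.96 and 1.11). In all, 2 of the 13 were higher and 2 lower in TKO under DMSO, 1 and 3 under TSA. Over all genes tested, 9.63% were higher and 10.7% lower under DMSO, and 10.0% and 8.38% under TSA. The listed heavy chain genes are close relatives, so reads may have been split or lost between copies.

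Tap1, 1 subunit of the peptide transporter, was at 30.3 and 19.7 CPM in wild type controls, 38.5 and 36.5 in TSA-treated wild type, 16.2 and 14.0 in TKO controls and 30.2 and 28.0 in TSA-treated TKO. The 2 wild type control libraries lay far apart, with TSA-treated TKO between them. TSA raised Tap1 by 0.58 (SE 0.18, adjusted p = 0.0175) in wild type and 0.94 (SE 0.18, adjusted p = 0.00121) in TKO. Under DMSO it was 1.66-fold lower in TKO (adjusted p = 0.0182). Under TSA the genotype difference was -0.37 and not called (SE 0.17, adjusted p = 0.169), but it passed with only these 4 libraries in the fit (adjusted p = 0.0456) and without wild type control replicate 1 or 2 (adjusted p = 0.0461 and 0.0474). The DMSO difference and the wild type TSA response lean on the wild type control pair: without its replicate 1 the DMSO difference was -0.40 (adjusted p = 0.142), and without its replicate 2 the wild type TSA response was 0.30 (adjusted p = 0.112). The DMSO call was also lost without TKO control replicate 1 or 2 (adjusted p = 0.0555 and 0.139), and the wild type TSA call without TSA-treated wild type replicate 1 (adjusted p = 0.0695). Replicate 1 of the wild type controls is also the one with the higher sum of fibroblast or mesenchymal markers (562 against 300.1 CPM). The listed markers did not agree: Tagln (351 against 153), Acta2 (72.8 against 37.1) and Fbn1 (46.7 against 28.0) were higher there. Col1a2 (11.3 against 18.1) and Thy1 (3.35 against 5.59) were lower. The trophoblast sum of that control pair was split the same way (761 against 511 CPM). In TSA-treated wild type, the fibroblast or mesenchymal sum was 638 CPM in replicate 1 and 417 in replicate 2, where Tap1 was at 38.5 and 36.5. The part of these markers in the Tap1 values was not tested.

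Tap2, the partner subunit, moved in the same directions: 7.49 and 5.92 CPM in wild type controls, 15.0 and 17.1 in TSA-treated wild type, 2.53 and 3.78 in TKO controls and 7.78 and 8.04 in TSA-treated TKO. The 4 groups did not overlap. TSA raised Tap2 2.38-fold in wild type (log2 1.25, SE 0.21, adjusted p = 0.000595) and 2.51-fold in TKO (log2 1.33, SE 0.23, adjusted p = 0.00063). In TKO it was 2.13-fold lower under DMSO (adjusted p = 0.00871) and 2.03-fold lower under TSA (adjusted p = 0.00626). The call under DMSO was lost without wild type control replicate 1 (-0.93, adjusted p = 0.0635) or TKO control replicate 1 (-0.83, adjusted p = 0.0797). TSA-treated TKO and wild type controls differed by 0.23 (SE 0.22, adjusted p = 0.365), and for Tap1 by 0.21 (SE 0.18, adjusted p = 0.318), without a call. For Tap1 this value turned on 1 library, being 0.55 (adjusted p = 0.0122) without wild type control replicate 1 and -0.07 (adjusted p = 0.711) without replicate 2.

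Tapbp, which encodes tapasin, the bridge between the transporter and empty class I molecules, was not called higher in any comparison. It was at 34.9 and 31.9 CPM in wild type controls, 30.5 and 28.6 in TSA-treated wild type, 29.0 and 34.6 in TKO controls and 19.9 and 21.3 in TSA-treated TKO. TSA-treated TKO lay below the other 3 groups, which overlapped in part. TSA lowered Tapbp by 0.63 on the log2 scale in TKO (SE 0.13, adjusted p = 0.00182), while the wild type value was -0.18 (SE 0.13, adjusted p = 0.266). The difference between the 2 responses, -0.45 (SE 0.18), was not called (adjusted p = 0.286). Under TSA, Tapbp was 1.43-fold lower in TKO (adjusted p = 0.0187), a call lost without TSA-treated wild type replicate 1, TSA-treated TKO replicate 1 or TSA-treated TKO replicate 2 (adjusted p = 0.133, 0.0953 and 0.0652).

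The 16 other genes of peptide trimming and class I loading were all tested, and most did not rise. With TSA, 1 rose and 6 fell in wild type and 2 rose and 5 fell in TKO. The shares over all genes tested were 27.0% higher and 25.9% lower in wild type, and 30.8% and 27.9% in TKO. Erap1, the aminopeptidase that trims peptides in the endoplasmic reticulum to class I length, was at 36.5 CPM in wild type controls, 12.5 in TSA-treated wild type, 24.8 in TKO controls and 5.95 in TSA-treated TKO. It fell with TSA by 1.55 and 2.05, was lower in TKO under DMSO (-0.56) and TSA (-1.06), and was 6.11-fold lower in TSA-treated TKO than in wild type controls. The cytosolic aminopeptidases Lap3 (fell by 1.36 in wild type and by 1.495 in TKO) and Npepps (fell by 0.86 and 1.03) moved the same way, as did Ide and Ganab. Uggt1, a folding sensor of the endoplasmic reticulum, rose by 0.25 and 0.21, and Tapbpl, the tapasin relative TAPBPR that edits peptides, rose by 0.82 in TKO after being lower there under DMSO (-1.71). From wild type controls to TSA-treated TKO, 4 of the 16 were higher, Nrd1 (0.49), Lnpep (0.45), Uggt1 (0.45) and Tpp2 (0.33), and 7 lower. Over all genes tested, 31.7% were higher and 30.2% lower in that comparison. Between genotypes, Lnpep was the 1 gene higher in TKO under DMSO (0.40) and Nrd1 the 1 higher under TSA (0.35). Of all genes tested, 9.63% were higher in TKO under DMSO and 10.0% under TSA.

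Psmb8 and Psmb9, which lie on either side of Tap1, moved in opposite directions with TSA. Psmb8 (LMP7) was at 11.2 and 11.6 CPM in wild type controls, 6.47 and 5.64 in TSA-treated wild type, 5.27 and 4.80 in TKO controls and 1.08 and 1.82 in TSA-treated TKO. The 4 groups did not overlap, and the TSA-treated TKO values rest on 16 and 29 counts. TSA lowered Psmb8 1.88-fold in wild type (log2 -0.91, SE 0.22, adjusted p = 0.00507) and 3.43-fold in TKO (log2 -1.78, SE 0.27, adjusted p = 0.000248). In TKO it was 2.26-fold lower under DMSO (adjusted p = 0.00405) and 4.13-fold lower under TSA (adjusted p = 0.000608). Between wild type controls and TSA-treated TKO the difference was 7.76-fold (log2 -2.96, SE 0.26, adjusted p = 5.58e-06). All 5 differences were called under each alternative run, and the interaction, -0.87 (SE 0.35), was not (adjusted p = 0.283).

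Psmb9 (LMP2) was at 4.85 and 4.54 CPM in wild type controls, 10.08 and 9.85 in TSA-treated wild type, 3.69 and 4.66 in TKO controls and 7.17 and 8.04 in TSA-treated TKO. Each TSA group lay above both control groups, which overlapped. TSA raised it 2.12-fold in wild type (log2 1.08, SE 0.20, adjusted p = 0.00114) and 1.82-fold in TKO (log2 0.87, SE 0.21, adjusted p = 0.00391). Genotype differences were not called (-0.17 under DMSO and -0.39 under TSA, adjusted p = 0.628 and 0.179). TSA-treated TKO lay 1.62-fold above wild type controls (adjusted p = 0.0119), a call lost without TSA-treated TKO replicate 2 (0.61, adjusted p = 0.0713).

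Against the constitutive subunit that each replaces, per kilobase, the 3 inducible subunits moved apart. Psmb9 made up 1.60% and 1.48% of the Psmb6 level in wild type controls, 4.38% and 4.50% in TSA-treated wild type, 1.12% and 1.38% in TKO controls and 3.00% and 3.44% in TSA-treated TKO. Psmb8 against Psmb5 was 10.2% and 10.13%, 8.97% and 9.75%, 4.38% and 4.40%, and 1.56% and 3.222% in the same order. Psmb8 thus stayed near its share of Psmb5 in TSA-treated wild type, where Psmb5 itself fell by 0.78, and was lower in all TKO libraries. Psmb10, the inducible subunit that replaces Psmb7 and which is no member, was at 79.3 CPM in wild type controls, 23.8 in TSA-treated wild type, 40.6 in TKO controls and 12.0 in TSA-treated TKO. It fell with TSA by 1.74 and 1.76 and was lower in TKO by 0.97 and 0.99 on the log2 scale, and its ratio to Psmb7 went from 20.6% and 18.0% in wild type controls to 3.75% and 3.27% in TSA-treated TKO.

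**Figure D2:**
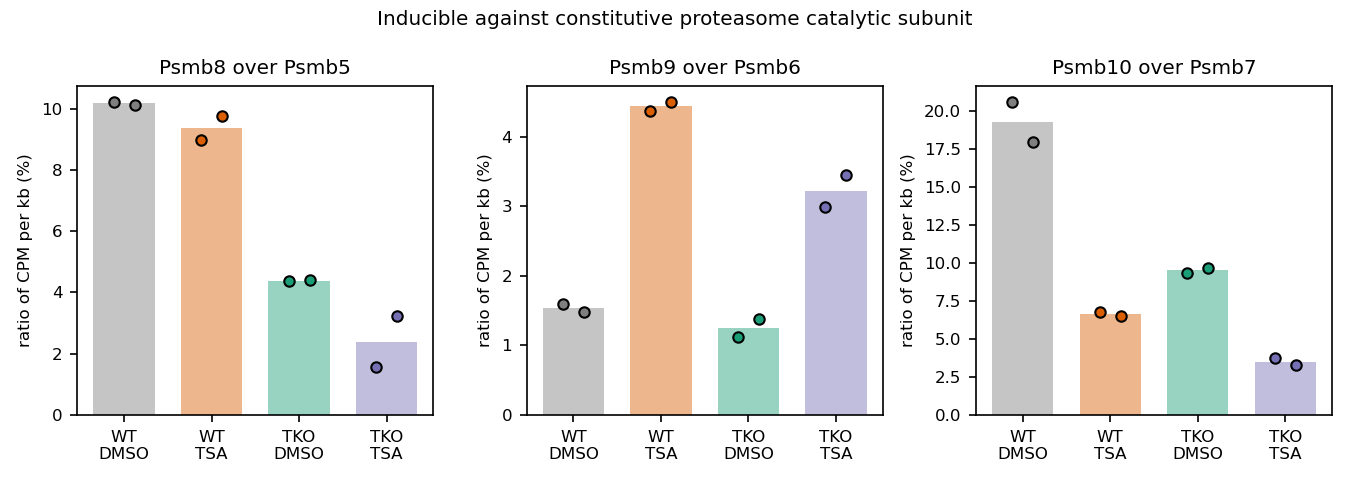
Level of each inducible proteasome subunit as a percentage of the constitutive subunit it replaces, from CPM per kb. Points are the 2 libraries of a group and bars their mean, WT is wild type, and each axis starts at 0. Psmb9 over Psmb6 is higher in the TSA groups (3.00% to 4.50%) than in the controls (1.12% to 1.60%), while Psmb10 over Psmb7 is lower.

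Among the 21 other proteasome subunits, caps and assembly genes, 20 were tested, and 13 fell with TSA in wild type and 13 in TKO. Over all genes tested, 25.9% fell and 27.0% rose in wild type, and 27.9% fell and 30.8% rose in TKO. None of the 20 rose in wild type, and Psmb2 rose in TKO (0.32). In wild type, 15 of the 20 had an unadjusted edgeR p below 0.05, against 9368 of all 15822 genes tested. The medians of the 20 were -0.33 and -0.35, so most of their changes were smaller than those of Psmb8 and Psmb10. Psme1 and Psme2, subunits of the interferon-inducible PA28 cap, fell in each genotype (Psme1 by 0.37 and 0.44, Psme2 by 0.68 and 1.13). In TKO against wild type, Psme1 was lower (-0.51 under DMSO and -0.59 under TSA) and Psme4, the PA200 cap, was higher (0.40 and 0.35), and Psmb10 was the other lower gene. Of all genes tested, 9.63% were higher and 10.7% lower in TKO under DMSO, and 10.0% and 8.38% under TSA.

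Psmb9, Tap1, Psmb8 and Tap2 are neighbours on mm10 chromosome 17 and span 34223 bases. Psmb9 (chr17:34182099-34187330, minus strand, 6 exons) starts 225 bases from Tap1 (chr17:34187556-34197225, plus strand, 11 exons), and Psmb8 (chr17:34198195-34201454, plus strand, 6 exons) starts 969 bases beyond the end of Tap1. Tap2 (chr17:34204479-34216321, plus strand, 12 exons) follows 3024 bases after Psmb8, and the table lists no other gene between them. With TSA, Psmb9, Tap1 and Tap2 rose in each genotype and Psmb8, between them, fell in each. None of the 4 shares exon bases with another gene of the table. In TKO under DMSO, Tap1, Psmb8 and Tap2 were lower and Psmb9 was not called. Between TSA-treated TKO and wild type controls, Psmb9 was higher, Psmb8 lower, and Tap1 and Tap2 not called.

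**Figure D3:**
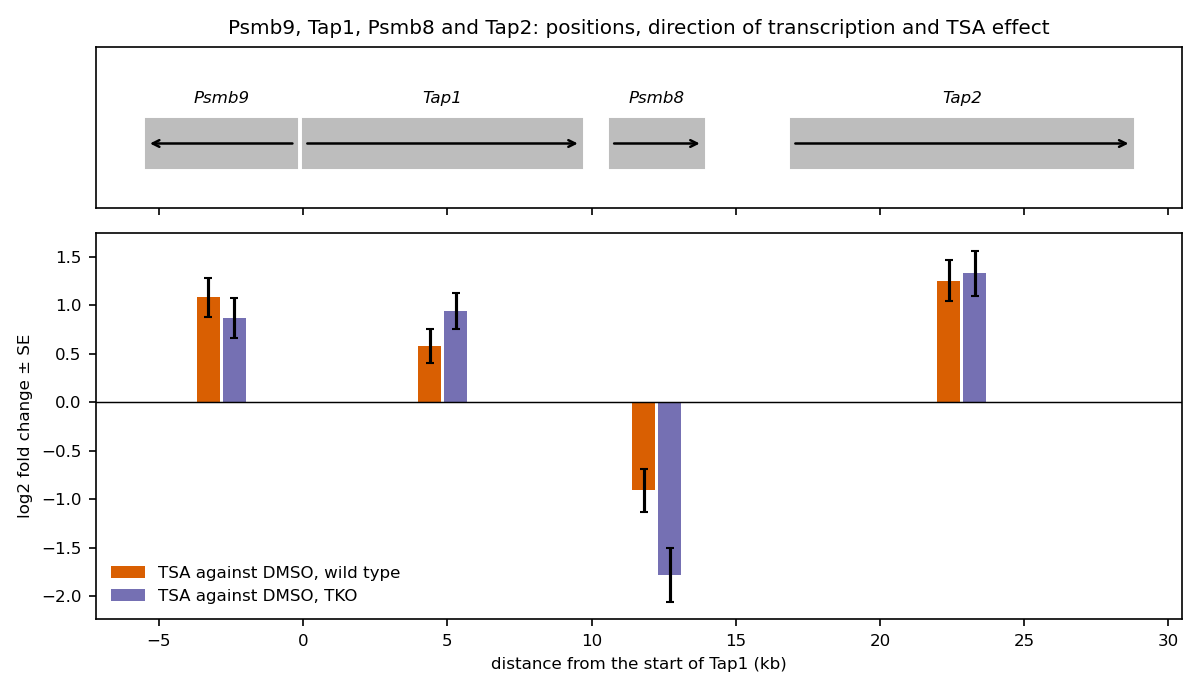
Positions of Psmb9, Tap1, Psmb8 and Tap2 in kilobases from the start of Tap1, drawn to scale with arrows in the direction of transcription (top), and their log2 fold changes with TSA, with SE bars, in each genotype (bottom). Psmb8 has a negative value in wild type (-0.91) and TKO (-1.78), and its 3 neighbours have positive values in both.

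Nlrc5 (chr8:94472763-94527272, plus strand, 49 exons), the class I transactivator, had the largest rise with TSA of the 9 members in each genotype. It was at 3.85 and 2.43 CPM in wild type controls, 16.1 and 13.3 in TSA-treated wild type, 1.64 and 1.53 in TKO controls and 5.75 and 5.59 in TSA-treated TKO. No group overlapped another, and TSA raised it 4.63-fold in wild type (log2 2.21, SE 0.24, adjusted p = 4.91e-05) and 3.56-fold in TKO (log2 1.83, SE 0.28, adjusted p = 0.000215). In TKO it was lower under TSA by 1.37 on the log2 scale (SE 0.22, adjusted p = 0.00196) and lower under DMSO by 0.99 (SE 0.30, adjusted p = 0.0366). The DMSO call rests on 54, 30, 24 and 21 counts and was lost with DESeq2 (adjusted p = 0.0575), with only these 4 libraries in the fit (adjusted p = 0.0754), and without wild type control replicate 1 (-0.63, adjusted p = 0.268), TKO control replicate 1 (-1.05, adjusted p = 0.12) or TKO control replicate 2 (-0.94, adjusted p = 0.163). TSA-treated TKO lay 1.79-fold above wild type controls (adjusted p = 0.013), a call lost without wild type control replicate 2 (0.55, adjusted p = 0.0957).

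Of 29 other regulators of class I genes, 8 rose and 13 fell with TSA in wild type and 7 rose and 11 fell in TKO. Over all genes tested, 27.0% rose and 25.9% fell in wild type, and 30.8% and 27.9% in TKO. Irf8, an interferon regulatory factor of blood cells, rose from 4.05 to 17.5 CPM in wild type and from 0.954 to 15.0 in TKO (log2 fold changes 2.10 and 3.96), after being lower in TKO under DMSO (-2.08). Socs1, a feedback inhibitor of interferon signalling, rose by 1.22 and 1.14, and the interferon receptor kinases Jak2 (1.00 and 1.12) and Jak1 (0.81 and 1.03) rose as well. Ifngr1, a chain of the interferon-gamma receptor, rose by 0.56 in wild type and 1.30 in TKO, where it was lower under DMSO (-0.69). The difference between its responses was not called (0.74, adjusted p = 0.174). Irf1, an interferon regulatory factor, fell by 0.29 and 0.45.

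Nfkb1 and Rela, which encode NF-kappaB subunits, fell by 0.91 and 0.90 and by 0.72 and 0.89. Atf1, a factor of the CREB and ATF family, fell by 0.95 and 1.24. Under DMSO, 2 of the 29 were higher in TKO (Jak1 by 0.36 and Stat3 by 0.34) and 3 lower, the third being Relb (-0.62) beside Irf8 and Ifngr1. Under TSA, Jak1 was higher in TKO (0.58) and 2 regulators were lower, Irf1 (-0.36) and Irf2, whose values were -1.87 with an adjusted p of 0.0301 at a mean below 2 CPM in every group. Irf2 was named after its values were seen. The shares of all genes tested were 9.63% higher and 10.7% lower in TKO under DMSO, and 10.0% and 8.38% under TSA. No regulator had a called interaction, against 1.35% of all genes.

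**Figure D4:**
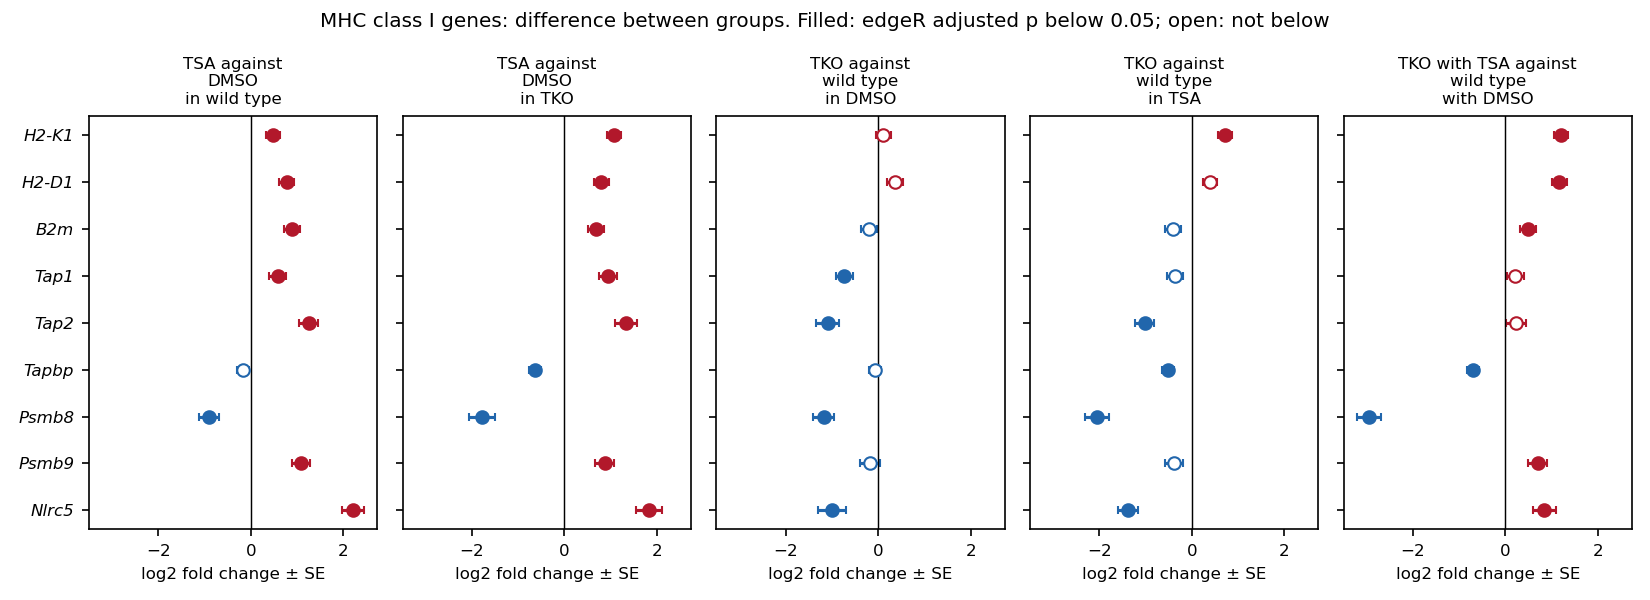
Log2 fold change of each member, with SE bars, in the 5 comparisons of 2 groups. Red marks values above 0 and blue values below 0, filled points have an edgeR adjusted p below 0.05, and all panels share 1 axis. With TSA, 7 members lie above 0 in both genotypes, Psmb8 and Tapbp below.

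Class II genes present peptides from outside the cell and are controlled by Ciita, a relative of Nlrc5. Of 13 listed, 10 were tested, and 7 rose and none fell with TSA in wild type, where the 7 were also the only ones with an unadjusted p below 0.05. In TKO, 7 rose and 2 fell. The shares over all genes tested were 27.0% higher and 25.9% lower in wild type, and 30.8% and 27.9% in TKO. Cd74, the invariant chain, went from 3.72 to 26.8 CPM in wild type and from 3.58 to 31.0 in TKO (log2 fold changes 2.84 and 3.11). H2-Aa went from 0.193 to 4.18 CPM and from 0.642 to 6.40, and H2-Eb2 from 0.152 to 1.84 and from 0.419 to 3.16, control levels that rest on few counts. H2-Eb1 was at 1.30 CPM in wild type controls, 9.00 in TSA-treated wild type, 7.53 in TKO controls and 14.8 in TSA-treated TKO, and its TSA response was smaller in TKO by 1.79 (interaction adjusted p = 0.04), a call lost on leaving out each of 6 of the 8 libraries in turn. It was higher in TKO under DMSO (2.50) and TSA (0.71), as was H2-DMb1 (2.30 and 1.16), which fell with TSA in TKO by 1.05. Ciita itself was near the floor in 3 groups (0.264, 0.323 and 0.326 CPM) and at 1.49 CPM in TKO controls. It was thus higher there than in wild type (2.45) and fell with TSA in TKO by 2.16. The filter on low counts ran over all groups at once. A gene near the floor in some groups, such as H2-Aa, H2-Eb2 or Ciita, could thus pass through a group where it was high. For such genes a call the other way was hardly possible, so the counts of class II genes that rose or fell are a description and not a test.

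Across the 8 libraries, the members fell into patterns that Pearson's r of log2 CPM describes. The libraries form 4 groups, so r reflects mostly the group means and is given with no p. H2-K1 and H2-D1 were alike (r = 0.93), and so were B2m, Tap1, Tap2, Psmb9 and Nlrc5 among themselves (r from 0.76 to 0.97), the highest being B2m with Psmb9. Tapbp and Psmb8 followed each other (r = 0.91) and ran against H2-K1 (r = -0.84 for each).

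The genes most like each member were sought among tested genes outside the members with a mean of at least 1 CPM. For H2-K1 the first was Hdac6 (r = 0.995), a histone deacetylase that TSA inhibits, followed by Ccnyl1 (r = 0.994). Hdac6 was at 138 CPM in wild type controls, 183 in TSA-treated wild type, 150 in TKO controls and 281 in TSA-treated TKO. Sync and Susd3 were most like H2-D1 (r = 0.998 and 0.996), Gm5918 and Nprl3 most like B2m (0.985 and 0.983), and Fjx1 and Pdpn most like Tap1 (0.994 each). Pdpn, a surface glycoprotein of mesenchymal and epithelial cells, had the same split in wild type controls as Tap1 (49.9 ± 13.4 CPM, SD, n = 2). For Tap2 they were D5Ertd579e and Upk1b (0.997 and 0.991), for Psmb9 Cntn1 and Tvp23a (0.992 and 0.991), and for Nlrc5 Lamb3, a laminin chain of epithelia, and Otud7b (0.997 and 0.995). Psmb8 was most like Park2 and Prph (0.989 and 0.987). Tapbp was most like a row with a date in place of a symbol (0.980) and like Smcr7 (0.977).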

How the data were processed

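Gene expression was measured by RNA-seq of ribosomal RNA-depleted, DNase-treated total RNA with a strand-directional kit, per the labels' protocols. The authors deposited raw read counts per gene for 8 libraries, with exon coordinates and each gene's exon length in bases, used as deposited. The submitters' processing notes name TopHat2 2.0.13, featureCounts 1.4.5-p1, edgeR 3.22.3 and mm10, with no role or order. The strand setting and the handling of multi-mapping or ambiguous reads are not given in the sources used here, so counts of overlapping or near-identical genes are uncertain. The other 118 of 126 samples were not analysed here.

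The deposited counts went into edgeR 4.0.16 (R 4.3.3) with filterByExpr (15822 of 23420 genes kept), TMM factors, and 1 quasi-likelihood model with a mean per group over all 8 libraries (4 residual degrees of freedom). Two-sided p-values were adjusted for all genes of a comparison after Benjamini and Hochberg, in 6 comparisons, the last being the interaction (the TKO response to TSA less the wild type response). SE are approximate, the log2 fold change divided by the square root of F. The biological coefficient of variation was 10.3%. Replicates differed beyond sampling noise (chi-square per degree of freedom 5.17 to 11.7), so each library counts as 1. Floors of 3 counts cover counting error only.

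The members and gene lists were chosen with earlier results of these data known. Named beside the members are Dnmt1, Dnmt3a and Dnmt3b. Per list and comparison, up to 3 called genes per direction with the largest fold change are named (no overlap of groups, mean CPM of 1 or more). Per member, the 2 genes outside the members with the highest Pearson r are named, also at a mean CPM of 1 or more. Other genes named, such as Irf1 and Ciita, were chosen after their values were seen. Alternatives were DESeq2 1.42.0, other scaling factors, no filter, a replicate term, only the groups compared, and leaving out each library.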

Additional observations from a re-analysis of the deposited data

Results flagged for a closer look

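Cell type markers aside, 2 of the members and listed genes had a called difference between the TSA responses of the 2 genotypes. This was by the test of the interaction itself (edgeR, adjusted over all genes). Tested were the 9 members and 13, 16, 20, 29 and 10 genes of the 5 lists. Over all genes tested, 213 of 15822 (1.35%) were called, so the 2 calls are described singly and are no result about the lists. H2-Q4, a class I heavy chain of the Q region, had a log2 fold change with TSA of 0.04 in wild type and 1.59 in TKO, a difference of 1.55 (adjusted p = 0.0352), and it was 2.07 CPM in the TKO controls against 8.93 in the wild type controls. H2-Eb1, a class II beta chain, rose by 2.76 in wild type and 0.97 in TKO, a difference of -1.79 (adjusted p = 0.04). It stood at 7.53 CPM in the TKO controls and 1.30 in the wild type controls. Both kept their direction in all 15 alternatives. The call for H2-Q4 was lost on leaving out any library but wild type DMSO replicate 2 (7 of 8, adjusted p up to 0.17), and that for H2-Eb1 on leaving out any but wild type DMSO replicate 1 and TKO TSA replicate 1 (6 of 8, adjusted p up to 0.167). Without 1 library the differences were 1.38 to 1.74 and -2.34 to -1.41. None of the 9 class I members had such a difference. The targeted gene Dnmt3b, on none of the lists, had a called interaction as well (1.33, edgeR adjusted p = 0.00521). It fell with TSA by 0.72 in wild type and rose by 0.61 in TKO.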

How the results depend on the processing

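Of 843 values of a member in a comparison under an alternative, 795 kept their direction and their side of the threshold, 25 lost the call, 6 gained one and 17 changed sign. Total counts as the only scaling moved the median of all genes by TSA to 0.22 in wild type and 0.19 in TKO, and upper quartile factors to 0.16 and 0.11, but neither changed a member's call, and Tapbp in wild type (0.027) was its only TSA value to change sign. Beside it the sign changes, all of values without a call, were in the interaction of H2-D1 (-0.035 with total counts, -0.053 with upper quartile factors, -0.0068 without a filter, -0.11 to 0.14 without 1 library), Tap2 (-0.0011 with upper quartile factors, -0.19 to 0.39 without 1 library) and B2m (-0.45 to 0.080 without 1 library), and, without 1 library, in TKO TSA against wild type DMSO for Tap1 (-0.066 to 0.55) and between genotypes under DMSO for B2m (-0.49 to 0.047), Tapbp (-0.20 to 0.053) and H2-K1 (-0.060 to 0.28). The causes were not tested.

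The replicate numbers are only shared between groups (deviations correlated by 0.06 to 0.37 over 6 pairs of groups). With them as a replicate block, 9256, 10039, 4217, 4097 and 10413 genes were called in the 5 comparisons of 2 groups in the order of the report, and H2-D1 (0.38, adjusted p = 0.0462) and B2m (-0.42, adjusted p = 0.0249) gained a call between genotypes under TSA. Interaction calls over all genes were 633 with the block, 488 without a filter and 401 with DESeq2, against 213.

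Leaving out 1 library leaves a group with 1 sample, assumed to vary like the others. The members called then ranged from 6 to 8 and 8 to 9 for TSA in wild type and TKO, 1 to 4 and 3 to 6 for genotype under DMSO and TSA, 5 to 7 for TKO TSA against wild type DMSO, and 0 for the interaction. All genes called ranged from 5780 to 8279, 7123 to 9839, 1458 to 3330, 941 to 3443, 7898 to 9650 and 10 to 410. Nlrc5 and Psmb8 had the fewest counts of the members, down to 21 and 16 in a library.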
